A study of Homo sapiens with 6 samples.

Results

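The genes described here make, recycle, phosphorylate or methylate the components of nicotinamide adenine dinucleotide (NAD), and were measured in MUM2B cells, a human line that the labels give as melanoma. They are QPRT, NAMPT, NAPRT, NMNAT1, NMNAT2, NADSYN1, NADK, NNMT, KYNU and IDO1, 10 of the 58735 genes listed, each found by its gene symbol. RNA sequencing covered 6 libraries: 3 of cells stably carrying an empty vector and 3 of cells stably overexpressing LACTB, a filament-forming mitochondrial protein related to bacterial beta-lactamases. All were grown in RPMI 1640 medium with serum, and no further treatment separates the groups. Values are FPKM, fragments per kilobase of exon, scaled to the depth of the library. The set was selected on measured values: it was drawn up around QPRT, whose FPKM was already known to fall in these same libraries. The differences of the members between LACTB and empty vector are therefore a description, given without p-values, and are not independent evidence. The labels do not say whether replicates came from separate cultures, or whether each line is 1 clone or a pool.

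NAD carries electrons in most redox reactions and is also broken down by sirtuins and by ADP-ribosyl transferases (PARPs), so cells keep making it. Tryptophan can be turned into quinolinate along the kynurenine pathway, which IDO1 opens and KYNU continues, and QPRT converts quinolinate into nicotinic acid mononucleotide. NAPRT makes the same mononucleotide from nicotinic acid, while NAMPT recycles the nicotinamide that NAD-consuming enzymes release and is regarded as the rate-limiting salvage enzyme. The NMNAT enzymes add the adenylyl group, NADSYN1 amidates the nicotinic acid form to NAD, and NADK phosphorylates NAD to NADP. NNMT methylates nicotinamide with S-adenosylmethionine and so takes it out of salvage.

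The libraries held 16978799 to 18395631 reads in genes, and LACTB itself lay at 3.39 to 4.71 FPKM with empty vector and at 161.5 to 173.9 FPKM with LACTB, so all 6 matched their labels. Empty vector replicate 3 stood apart by its mitochondrial reads, 3.61% of the total against 4.65% to 5.62% in the others. Without it, the log2 fold changes of the 4 members called below were -1.71 for QPRT, 0.76 for NAMPT, 0.63 for NNMT and 0.53 for NMNAT2, with every call kept. All 15 markers of the melanocyte lineage had a mean under 1 FPKM, with PAX3, TRPM1, OCA2 and S100B at 0 in every library, so the defining markers of the labelled lineage were at or near 0. Their summed level ran from 1.42 to 1.72 FPKM with empty vector and from 1.90 to 2.35 FPKM with LACTB. All 8 macrophage and leukocyte markers were also under 1 FPKM, at a summed 0.195 to 0.327 FPKM with empty vector and 0.234 to 0.371 FPKM with LACTB, with AIF1 at 0. All 7 fibroblast markers were under 1 FPKM as well. Epithelial KRT8 and KRT18 averaged 174 and 153 FPKM, and the other 3 of 5 epithelial markers were under 1 FPKM. The summed epithelial level was 340.2 to 351.8 FPKM with empty vector and 304.2 to 311.3 FPKM with LACTB. The endothelial cadherin CDH5 averaged 31.9 FPKM, and the other 5 of 6 endothelial markers were under 1 FPKM. The summed endothelial level was 47.7 to 52.5 FPKM with empty vector and 14.1 to 14.8 FPKM with LACTB. The part of these levels in the values below was not tested.

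In LACTB cells the NAD synthesis genes did not move together. QPRT was far lower, NAMPT, NNMT and NMNAT2 were 1.59- to 1.69-fold higher, and the other expressed members differed little. A gene was called when its adjusted p was under 0.05 by limma on log2(FPKM + 1), adjusted by Benjamini-Hochberg over the 11875 genes whose mean reached 1 FPKM. Of the 10 members, 8 were tested, 3 were called as higher and 1 as lower, and 4 had no call. Over all genes tested, 32.0% were called, 14.8% as higher and 17.2% as lower. Without overlap between the groups, 4 of the tested members lay above and 1 below with LACTB, as 22.3% and 25.1% of all genes tested did. The tested members had a median log2 fold change of 0.12, against -0.010 for all genes tested. KYNU and IDO1 lay under the filter.

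**Figure D1:**
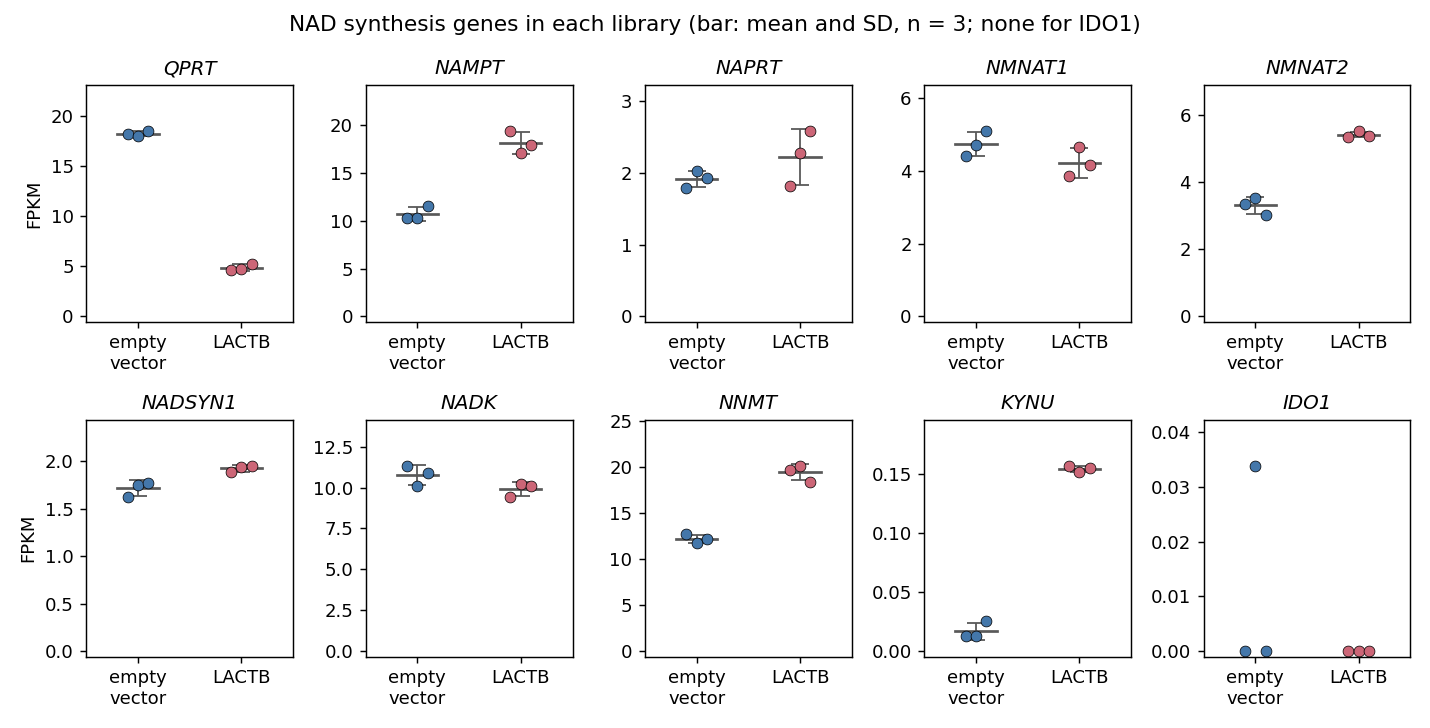
Level in FPKM (vertical axes, each on its own scale) of each NAD synthesis gene in the 3 empty vector libraries (blue) and the 3 LACTB libraries (red), with the mean and SD except for IDO1. QPRT lies at 18.0 to 18.4 FPKM with empty vector and at 4.58 to 5.25 FPKM with LACTB. NAMPT, NNMT, NMNAT2, KYNU and, by a small difference, NADSYN1 lie higher in every LACTB library.

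QPRT, quinolinate phosphoribosyltransferase, lies on chromosome 16 from 29679008 to 29698699 (GRCh38, plus strand). Its level was 18.2, 18.0 and 18.4 FPKM in empty vector replicates 1 to 3, and 4.58, 4.74 and 5.25 FPKM in LACTB replicates 1 to 3. The groups were far apart, and each was tight within itself. The means were 18.2 ± 0.222 and 4.86 ± 0.351 FPKM (SD, n = 3 each), a level 3.75-fold lower, on 3567 and 943 reads summed over each group. The log2 fold change was -1.72 (SE 0.053), and among the 11875 genes tested 8 had a more negative value. With limma voom on the reads recovered from the FPKM values, which adds no pseudocount of 1 FPKM, the log2 fold change was -1.91. In RNA from many cells, a lower level in each cell and fewer cells with the transcript cannot be told apart.

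Shown are the promoters of QPRT, called as lower, and of NAMPT and NMNAT2, called as higher. That of KYNU, which lay higher in every LACTB library but under the filter, is shown as well. NADSYN1 also lay higher in every LACTB library, without a call, and its window was read but is not shown. Each window runs from 250 bases before to 50 bases after a RefSeq start site (GRCh38.p14), 5′ to 3′ on the gene's strand. Windows were read for 7 of the 10 members, not for NAPRT, NNMT and IDO1. Capitals mark matches, on either strand, to any of 8 motifs: TTCNNNGAA (STAT type), a pair of GAAA with 2 bases between them (interferon type), TGANTCA (AP-1 type), CACGTG (E-box), TGATGNAA (ATF4 type), TCACNCCAC (sterol type), TGACNNNGC (antioxidant type) and GGG followed after 5 bases by CC (NF-kB type). The windows are QPRT at chr16:29678930-29679229 (plus strand), NAMPT at chr7:106284934-106285233 (minus strand), NMNAT2 at chr1:183418331-183418630 (minus strand) and KYNU at chr2:142877414-142877713 (plus strand).
QPRT: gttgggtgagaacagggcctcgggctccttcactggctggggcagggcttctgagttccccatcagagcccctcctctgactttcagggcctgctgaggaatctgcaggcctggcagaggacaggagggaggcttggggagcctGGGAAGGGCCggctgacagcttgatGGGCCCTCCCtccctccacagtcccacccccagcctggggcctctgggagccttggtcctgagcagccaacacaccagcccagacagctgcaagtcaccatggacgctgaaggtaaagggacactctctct
NAMPT: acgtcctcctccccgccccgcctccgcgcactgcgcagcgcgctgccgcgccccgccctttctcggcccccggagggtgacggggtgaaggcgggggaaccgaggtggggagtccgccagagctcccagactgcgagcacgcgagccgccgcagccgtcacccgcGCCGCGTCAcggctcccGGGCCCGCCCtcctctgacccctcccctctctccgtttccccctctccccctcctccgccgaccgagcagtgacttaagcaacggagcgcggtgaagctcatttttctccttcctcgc
NMNAT2: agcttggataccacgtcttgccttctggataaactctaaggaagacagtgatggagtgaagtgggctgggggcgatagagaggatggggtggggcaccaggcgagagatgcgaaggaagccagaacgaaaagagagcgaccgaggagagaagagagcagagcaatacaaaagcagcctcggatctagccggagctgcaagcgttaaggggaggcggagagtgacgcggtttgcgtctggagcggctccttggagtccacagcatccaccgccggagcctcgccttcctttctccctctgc
KYNU: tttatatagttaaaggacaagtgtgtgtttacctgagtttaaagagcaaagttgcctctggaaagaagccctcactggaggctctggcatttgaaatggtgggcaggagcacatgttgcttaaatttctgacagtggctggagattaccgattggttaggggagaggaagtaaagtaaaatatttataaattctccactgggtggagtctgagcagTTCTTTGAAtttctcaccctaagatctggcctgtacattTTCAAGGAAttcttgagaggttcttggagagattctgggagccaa
The QPRT window also contains the upstream start site that RefSeq lists, at 29679008. The QPRT and KYNU windows held few CpG dinucleotides, 3 and 1, against 18 in NMNAT2, 38 in NAMPT and a median of 14 over 35097 promoters. QPRT held the NF-kB type pattern at bases -106 to -97 and -81 to -72 from the start site, which is found in 58.7% of all promoters. NAMPT held the same pattern at -68 to -59 and TGACNNNGC, found in 13.3% of promoters, on the other strand at -85 to -77. Both patterns also lay in the window of NADSYN1, which had no call, with TGACNNNGC at -63 to -55. The NF-kB type pattern lay in windows of NADK and NMNAT1 too, also members without a call. KYNU held TTCNNNGAA, found in 7.66% of promoters, at -34 to -26 and at 6 to 14. The NMNAT2 window shown held no match, and no motif was shared by the 4 windows shown. RefSeq lists another NMNAT2 start site at 183304874, whose window (chr1:183304825-183305124) held TTCNNNGAA at -209 to -201. The window of the upstream QPRT start site held no match. Positions are counted from the start site of each window. The annotated spans of QPRT, NAMPT and KYNU begin upstream of the start sites of the windows shown, and the matches given for them lie inside those spans. A match is a string of letters, and whether any factor binds there was not measured.

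Of the kynurenine pathway upstream of QPRT, IDO1, TDO2, KMO, KYNU and HAAO had few reads or none, while the formamidase gene AFMID was expressed. KYNU, kynureninase (chromosome 2, 142877498 to 143055832), had 4, 4 and 8 reads in the empty vector libraries and 50, 46 and 49 reads in the LACTB libraries. The LACTB libraries lay above the others without overlap, but at a very low level, 0.0169 ± 0.00722 against 0.155 ± 0.00251 FPKM (SD, n = 3 each). From 16 and 145 reads the ratio was 9.14, and its 95% bounds for counting error alone were 5.44 and 16.4 (exact, Clopper-Pearson). KYNU was called as higher without a filter, where 8.67% of genes were called and 4.09% as higher. It was also called as higher by limma voom on genes with at least 10 recovered reads, added after seeing the data, where 23.8% of genes were called and 11.6% as higher. The voom log2 fold change was 3.14 (SE 0.423). KYNU belongs to the selected set, so these calls and bounds describe its values and are not independent evidence. IDO1, which starts the pathway from tryptophan, had 2 reads in empty vector replicate 2 and none in the other 5 libraries. A sum of 3 reads over a group would give 0.0171 FPKM in the empty vector group and 0.0173 in the LACTB group. Differences of IDO1 below such levels were not detectable at this depth.

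Among 9 other genes of the kynurenine pathway, 4 were tested. Of these, 2 fell and none rose (median log2 fold change -0.086), where 17.2% of all genes tested fell and 14.8% rose. The genes that fell were KYAT1 and KYAT3, which encode aminotransferases that can divert kynurenine to kynurenic acid. KYAT1 fell from 2.85 ± 0.283 to 1.78 ± 0.261 FPKM (limma log2 fold change -0.47, SE 0.094, adjusted p = 0.00941). KYAT3 fell from 10.05 ± 0.468 to 7.97 ± 0.674 FPKM (limma log2 fold change -0.30, adjusted p = 0.0134). That call was lost when values were rescaled to TPM, where 16070 genes passed the filter (limma, adjusted p = 0.0611). AADAT, another aminotransferase of this kind, stood at 2.93 ± 0.228 and 3.32 ± 0.417 FPKM without a call, and its groups overlapped (limma, adjusted p = 0.295). AFMID stood at 3.80 ± 0.142 and 4.32 ± 0.187 FPKM without a call (limma, adjusted p = 0.0708). The dioxygenase genes TDO2 and IDO2 had no read in any library. KMO, which makes hydroxykynurenine, had 5 and 6 reads summed over the empty vector and LACTB libraries. HAAO, the enzyme whose product closes to quinolinate, had 2 and 0 reads, and ACMSD, which diverts that product, had 4 and 5. QPRT, with 3567 reads over the empty vector libraries, was thus measured in cells in which transcripts of IDO1, TDO2, KMO, KYNU and HAAO were at or near 0.

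NAMPT (chromosome 7, 106248285 to 106286326, minus strand) lay at 10.3, 10.3 and 11.6 FPKM in the empty vector libraries and at 19.4, 17.1 and 17.9 FPKM in the LACTB libraries. The groups did not overlap. The means were 10.7 ± 0.740 and 18.1 ± 1.16 FPKM, 1.69-fold higher with LACTB (log2 fold change 0.70, SE 0.064). NAPRT, the other mononucleotide-forming enzyme that starts from a vitamin, lay low, at 1.79, 2.02 and 1.93 FPKM with empty vector and at 1.81, 2.28 and 2.58 FPKM with LACTB. Its groups overlapped, and it had no call (log2 fold change 0.14, SE 0.099), on 97 to 143 reads per library.

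The genes that add the adenylyl group divided. NMNAT2, whose product is the short-lived cytoplasmic enzyme best known for protecting axons (chromosome 1, 183248237 to 183418602, minus strand), lay at 3.36, 3.53 and 3.02 FPKM with empty vector and at 5.34, 5.51 and 5.38 FPKM with LACTB. It was 1.64-fold higher without overlap between the groups (log2 fold change 0.58, SE 0.059). NMNAT1, the nuclear enzyme (chromosome 1, 9943428 to 9985501), lay at 4.41, 4.72 and 5.09 FPKM with empty vector and at 3.85, 4.65 and 4.15 FPKM with LACTB. Its groups overlapped, with a log2 fold change of -0.14 (SE 0.074) and no call. NMNAT3, the mitochondrial enzyme and no member of the list, had 4 reads with empty vector and 0 with LACTB.

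NADSYN1, the NAD synthetase (chromosome 11, 71453109 to 71524107), lay at 1.63, 1.76 and 1.78 FPKM with empty vector and at 1.88, 1.94 and 1.95 FPKM with LACTB. The groups did not overlap, which held for 47.4% of all genes tested, but the difference was small and had no call (log2 fold change 0.11, SE 0.064). NADK, the cytosolic NAD kinase (chromosome 1, 1751232 to 1780457, minus strand), lay at 11.3, 10.1 and 10.9 FPKM with empty vector and at 9.44, 10.2 and 10.1 FPKM with LACTB. Its groups overlapped, and it had no call (log2 fold change -0.11, SE 0.055). Its mitochondrial counterpart NADK2 stood at 5.84 ± 0.395 and 5.83 ± 0.0617 FPKM.

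NNMT, nicotinamide N-methyltransferase (chromosome 11, 114257787 to 114313285), lay at 12.7, 11.8 and 12.2 FPKM with empty vector and at 19.8, 20.1 and 18.5 FPKM with LACTB. It was 1.59-fold higher without overlap (log2 fold change 0.63, SE 0.049). Of 11 genes of nicotinamide clearance and the methyl cycle that supplies NNMT, 8 were tested. Of these, 2 fell and none rose (median log2 fold change 0.051), where 17.2% of all genes tested fell and 14.8% rose. Without empty vector replicate 2, 1 rose, and by voom on recovered reads 2 rose and 3 fell. AOX1, the aldehyde oxidase that oxidises methylnicotinamide, fell from 42.8 ± 1.75 to 29.9 ± 1.53 FPKM (limma log2 fold change -0.50, SE 0.052, adjusted p = 0.000646). AHCYL1, a protein related to the hydrolase of S-adenosylhomocysteine, fell from 34.2 ± 0.603 to 29.3 ± 0.529 FPKM (limma log2 fold change -0.22, adjusted p = 0.0052), a call lost as TPM (adjusted p = 0.0598). MAT2A, which makes S-adenosylmethionine, stood at 67.5 ± 0.791 and 73.4 ± 2.66 FPKM, and AHCY at 30.5 ± 0.858 and 31.4 ± 2.71 FPKM, both without a call (limma, adjusted p = 0.0632 and 0.689).

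The order of the members by level per exon length changed at the top. With empty vector, QPRT was highest, followed by NNMT, NADK and NAMPT, then NMNAT1, NMNAT2, NAPRT, NADSYN1, KYNU and IDO1. Of neighbours in that order, NADK and NAMPT overlapped, as did KYNU and IDO1. With LACTB, NNMT (19.5 ± 0.885 FPKM) and NAMPT were highest and overlapped, and QPRT stood at place 5, after NADK and NMNAT2, overlapping with NMNAT1; NAPRT and NADSYN1 overlapped as well. FPKM divides by all annotated exon bases of a gene, 16263 for NADSYN1 against 2773 in its principal transcript. Per length of principal transcript, a choice added after seeing the data, NADSYN1 stood at 10.1 ± 0.481 with empty vector in place of 1.72 ± 0.0821 FPKM, which moved it from place 8 to place 5. QPRT was still first by that measure with empty vector, at 28.3 ± 0.345, and NAMPT moved from place 4 to place 2, at 21.2 ± 1.46. With LACTB, NAMPT came first by that measure, at 35.8 ± 2.29, ahead of NNMT at 30.4 ± 1.38, with NADK at place 3. NADSYN1 then stood at place 4, at 11.3 ± 0.216, above QPRT at place 5 and NMNAT2 at place 6.

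Ratios within a library, which do not depend on library size, turned over for both pairs of related enzymes. NAMPT stood at 0.565, 0.574 and 0.628 of the QPRT level in the empty vector libraries, and at 4.23, 3.60 and 3.42 times that level in the LACTB libraries. QPRT was chosen for its fall, so this turn follows largely from the choice. NMNAT2 stood at 0.760, 0.748 and 0.593 of the NMNAT1 level with empty vector and at 1.39, 1.18 and 1.30 times it with LACTB. The ratio of NNMT to NAMPT overlapped between the groups, at 1.05 to 1.23 with empty vector and 1.02 to 1.18 with LACTB, both genes being higher with LACTB.

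**Figure D2:**
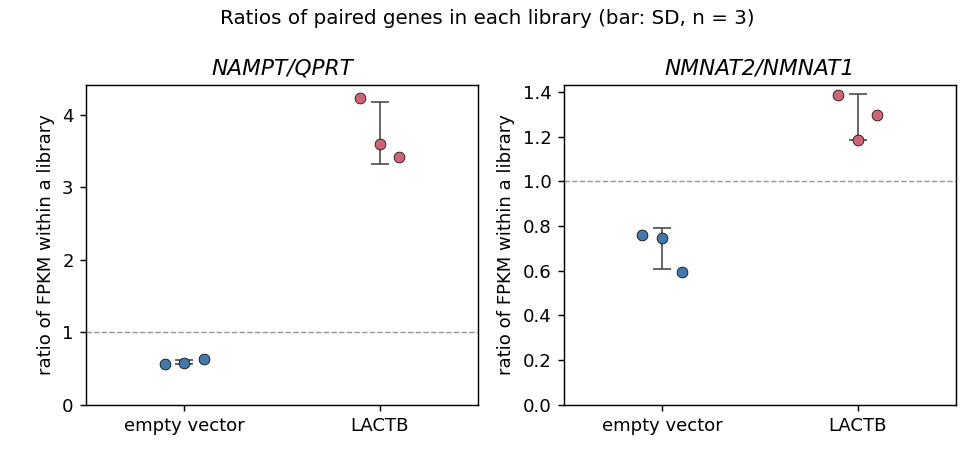
Ratio of FPKM values within each library (vertical axes) for NAMPT over QPRT and for NMNAT2 over NMNAT1, in 3 empty vector (blue) and 3 LACTB libraries (red), with bars for the SD. Every empty vector library lies below the dashed line at 1 and every LACTB library above it, in both panels. For NAMPT over QPRT this follows largely from the choice of QPRT for its fall.

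Around these members, 78 other genes of NAD metabolism in 6 lists were followed, of which 51 were tested. In LACTB cells 8 rose, 12 fell and 31 had no call, where 32.0% of all genes tested were called, 14.8% as risen and 17.2% as fallen. The median log2 fold change of the 51 was 0.030. The largest differences were those of SLC7A5 and SLC3A2, the subunits of a transporter that carries tryptophan among other large amino acids.

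Among enzymes of nucleoside salvage and related kinases and phosphatases, 11 of 15 were tested. Of these, 2 fell and none rose (median log2 fold change -0.084), where 17.2% of all genes tested fell and 14.8% rose. NUDT5, which hydrolyses ADP-ribose, fell from 26.5 ± 0.917 to 20.5 ± 0.727 FPKM (limma log2 fold change -0.35, adjusted p = 0.00154). PNP, the purine nucleoside phosphorylase, fell from 38.8 ± 0.753 to 35.0 ± 0.942 FPKM (limma, adjusted p = 0.0265), a call lost when any 1 of the 6 libraries was left out (adjusted p = 0.0546 to 0.0708) and as TPM (adjusted p = 0.213). NMRK1, which phosphorylates nicotinamide riboside, stood at 4.03 ± 0.547 and 4.30 ± 0.385 FPKM without a call (limma, adjusted p = 0.551), and NMRK2 had no read.

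Of 15 surface enzymes and carriers of NAD, its precursors and tryptophan, 7 were tested. Of these, 2 rose and 3 fell (median log2 fold change -0.24), where 14.8% of all genes tested rose and 17.2% fell. SLC7A5 rose from 51.2 ± 4.95 to 170.2 ± 8.48 FPKM (limma log2 fold change 1.72, SE 0.076, adjusted p = 1.39e-05) and SLC3A2 from 32.6 ± 1.18 to 95.7 ± 5.72 FPKM (limma log2 fold change 1.52, adjusted p = 6.86e-06). NT5E, the surface nucleotidase CD73, fell from 169.7 ± 1.70 to 130.4 ± 3.53 FPKM (limma log2 fold change -0.38, adjusted p = 0.000649). BST1, a surface NAD glycohydrolase, fell from 5.88 ± 0.369 to 3.95 ± 0.0825 FPKM (limma log2 fold change -0.47, adjusted p = 0.00106). The related enzyme CD38 had 0 and 1 reads over the groups. SLC29A1, a nucleoside carrier, fell from 20.7 ± 1.26 to 17.4 ± 0.900 FPKM (limma, adjusted p = 0.0206). That call was lost without empty vector replicate 1 or 2 or LACTB replicate 1 or 2 (adjusted p = 0.0564 to 0.0647), and without a filter (adjusted p = 0.0621). SLC25A51, the mitochondrial NAD carrier, stood at 2.49 ± 0.0280 and 2.55 ± 0.299 FPKM without a call (limma, adjusted p = 0.863).

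Among the NAD consumers, 2 of 6 tested sirtuins rose and none fell (median log2 fold change 0.17). Over all genes tested, 14.8% rose and 17.2% fell. SIRT1, a nuclear deacetylase, rose from 6.07 ± 0.123 to 8.47 ± 0.160 FPKM (limma log2 fold change 0.42, SE 0.041, adjusted p = 0.000521). SIRT7, the nucleolar sirtuin, rose from 4.99 ± 0.327 to 6.08 ± 0.363 FPKM (limma, adjusted p = 0.0242), a call lost without empty vector replicate 1 or 2 or LACTB replicate 2 or 3 (adjusted p = 0.0616 to 0.0782). Of 21 ADP-ribosyl transferase genes with SARM1, 15 were tested. Of these, 4 rose and 3 fell (median log2 fold change 0.058), beside the same shares of all genes tested. PARP11 rose from 1.64 ± 0.0649 to 2.51 ± 0.164 FPKM (limma log2 fold change 0.41, adjusted p = 0.00435), PARP6 1.23-fold and the tankyrase TNKS2 from 16.8 ± 0.888 to 20.1 ± 0.902 FPKM (limma, adjusted p = 0.0124 and 0.0136). TIPARP fell from 40.3 ± 2.41 to 31.7 ± 0.932 FPKM (limma log2 fold change -0.33, adjusted p = 0.00364). PARP1, the main transferase activated by DNA breaks, fell from 38.7 ± 0.304 to 33.5 ± 1.12 FPKM (limma log2 fold change -0.20, adjusted p = 0.00835), a call lost as TPM (adjusted p = 0.0733). PARP4 fell from 40.9 ± 1.83 to 35.7 ± 0.558 FPKM (limma, adjusted p = 0.017), a call lost without empty vector replicate 2 or LACTB replicate 2 or 3 (adjusted p = 0.0562 to 0.0662). As TPM, the calls of PARP4 and SIRT7 were lost as well (adjusted p = 0.139 and 0.0692), and that of SIRT7 also without a filter (adjusted p = 0.0709). SARM1, the NAD hydrolase of axon degeneration, had 48 and 30 reads over the groups and was not tested.

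**Figure D3:**
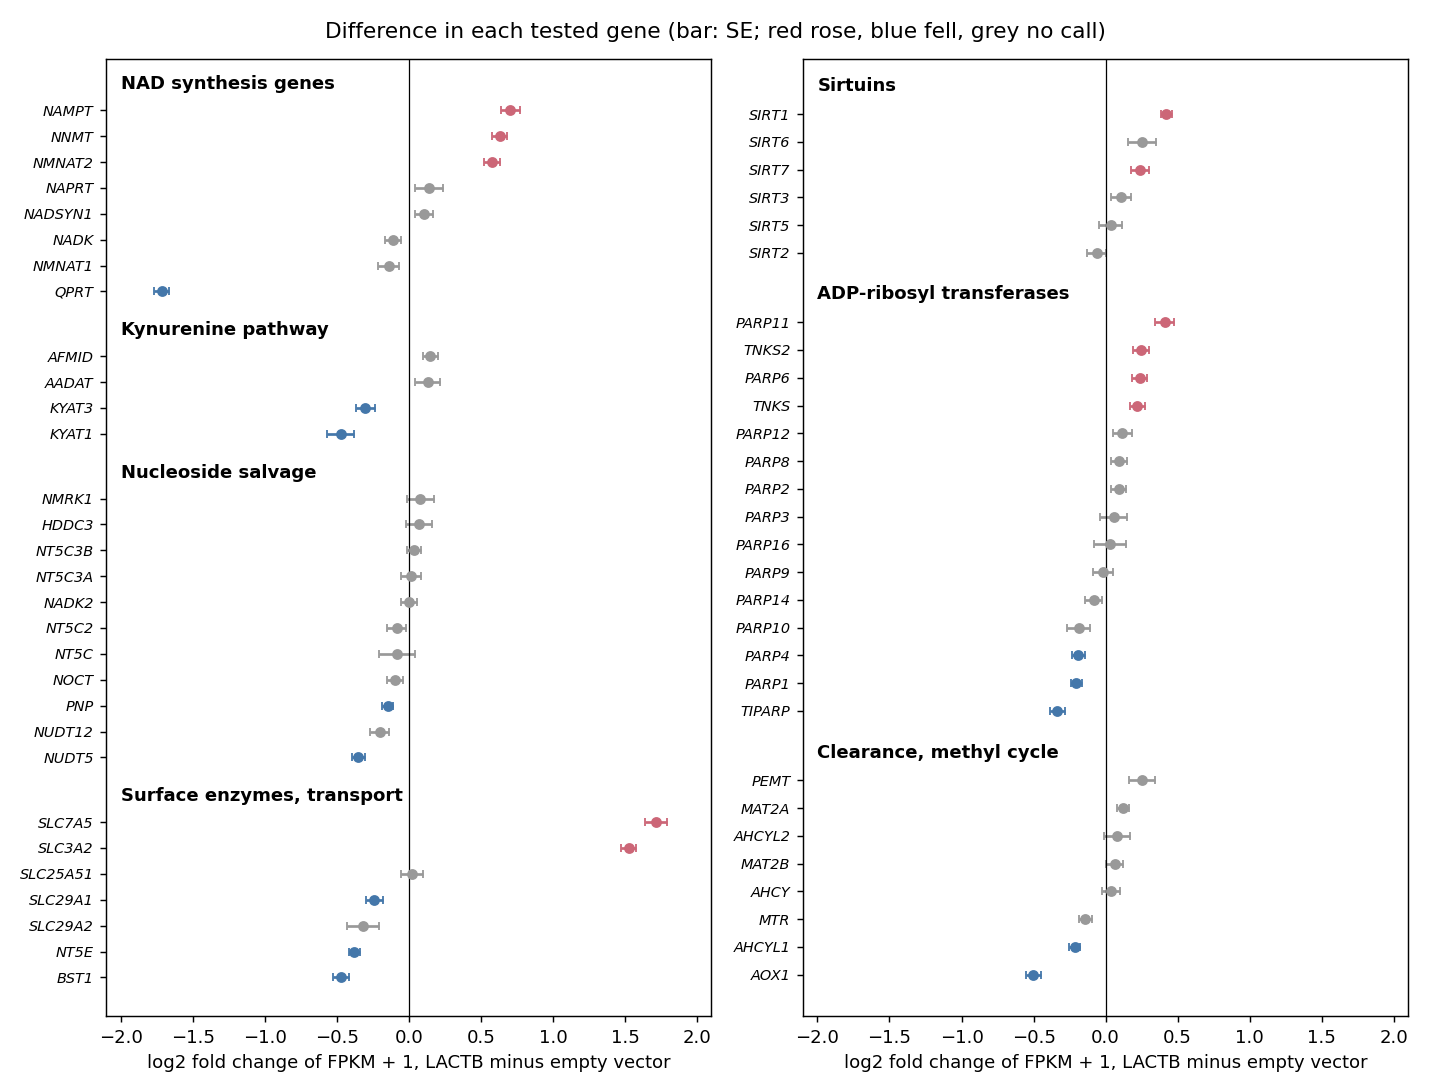
Log2 fold change of FPKM + 1, LACTB minus empty vector (horizontal axes), with its SE, for the tested NAD synthesis genes and the 51 tested genes of the 6 other lists. QPRT at -1.72 has the most negative value shown, and SLC7A5 at 1.72 and SLC3A2 at 1.52 the highest.

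QPRT was chosen for its fall, and 29 of the 11875 genes tested had a larger absolute log2 fold change. That the tested genes within 200 kb differed less than QPRT was therefore likely from the choice alone. The nearest of them, SLC7A5P1, lay 65.4 kb from QPRT. Of 29 genes within 200 kb of QPRT's ends, 14 were listed at 0 in all libraries and 7 were tested. Of these 7, 2 fell and 1 rose (median log2 fold change 0.013), where 17.2% of all genes tested fell and 14.8% rose. The genes that fell were MAZ, a zinc finger factor, from 6.96 ± 0.198 to 5.72 ± 0.508 FPKM (limma log2 fold change -0.25, SE 0.064, adjusted p = 0.025), and PAGR1, from 2.42 ± 0.221 to 1.70 ± 0.143 FPKM (limma log2 fold change -0.34, SE 0.077, adjusted p = 0.0159). The call of MAZ was lost without empty vector replicate 1 or 2 or LACTB replicate 1 or 2 (adjusted p = 0.0581 to 0.0732), and as TPM (adjusted p = 0.0654). Without a filter the calls of MAZ and PAGR1 were both lost (adjusted p = 0.0745 and 0.0562). SEZ6L2 rose from 1.80 ± 0.159 to 3.95 ± 0.199 FPKM (limma log2 fold change 0.82, SE 0.068, adjusted p = 0.000236). The count of genes that fell is 1 without empty vector replicate 1, LACTB replicate 1 or LACTB replicate 2. AC009086.2, an annotated gene that overlaps QPRT on the same strand, was listed at 0 in all libraries.

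**Figure D4:**
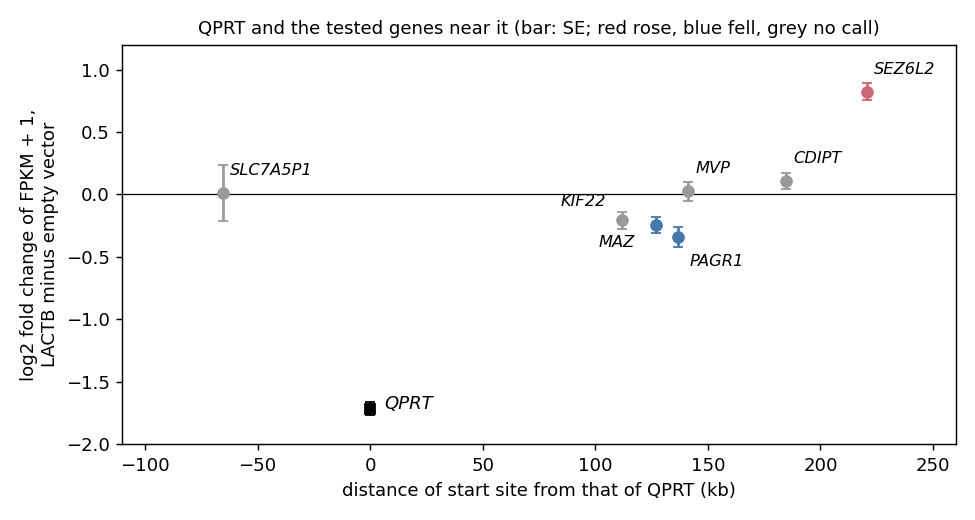
Log2 fold change of FPKM + 1, LACTB minus empty vector (vertical axis), with its SE, against the distance of each tested gene's start site from that of QPRT in kb (horizontal axis). QPRT (square) lies at -1.72, and the 7 tested neighbours lie between -0.34 (PAGR1) and 0.82 (SEZ6L2).

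Many genes follow the QPRT pattern over the 6 libraries. Of 9891 other genes whose mean reached 2 FPKM, 150 had a Pearson r of at least 0.99 with QPRT on log2(FPKM + 1). The 5 highest were ELOVL5, a fatty acid elongase, SUN1, a protein of the nuclear envelope, SFXN1, a mitochondrial serine carrier, P3H2, a collagen prolyl hydroxylase, and UBE2N, a ubiquitin-conjugating enzyme (r = 0.998 to 1.000). These values mostly reflect the difference between the groups of 3 libraries that the genes share. By size the 5 genes differed from QPRT: P3H2 went from 7.61 ± 0.170 to 3.28 ± 0.125 FPKM (log2 fold change -1.01), and ELOVL5 from 62.0 ± 0.235 to 51.6 ± 0.297 FPKM (log2 fold change -0.26).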

How the data were processed

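RNA was sequenced from 6 libraries, 3 per group, with total RNA, a NEBNext Ultra kit and paired-end reads, per the labels' protocols. The authors deposited 1 file of FPKM values per library. Per the submitters' processing notes, build GRCh38 and the tools DESeq2 1.16.1, featureCounts 1.5.0-p3 and HISAT2 2.0.5 were used, with no role or order given. Not given in the sources used here are the annotation release and the use of strand, so reads of overlapping or near-identical genes cannot be told apart with certainty. All 58735 gene IDs matched GENCODE 29. FPKM times exon length gave whole reads for 100% of values (tolerance 0.1 reads), hence the reads quoted.

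Limma 3.58.1 in R 4.3.3 (eBayes with trend) was fitted to log2(FPKM + 1) of genes whose mean reached 1 FPKM, with Benjamini-Hochberg adjustment over all of them. Log2 fold changes on this scale understate the change of low genes; ratios are of group means of FPKM. Since separate cultures are not stated, p-values reflect only the spread among these 6 libraries, which may be technical. The fit was also run on simulated counts with few changed genes and the same extra spread for every gene. That setting differs from these data, so the run does not vouch for the calls. Members and lists were chosen with earlier results of these data known. Named were the members, LACTB, up to 3 risen and 3 fallen genes per list with the smallest p, called genes near QPRT and the 5 genes most like it; genes named beside these were chosen after their values were seen. Promoters came from the RefSeq table.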

Additional observations from a re-analysis of the deposited data

How the results depend on the processing

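The calls of QPRT, NAMPT, NNMT and NMNAT2 kept their direction and threshold in every alternative that tested them: a filter of 5 FPKM (which leaves out NMNAT2), none, TPM, a pseudocount of 0.1, median-of-ratios scaling, quantile normalization, no variance trend, robust estimation, voom, a replicate block, an adjusted p under 0.01 and each library left out. Over these, log2 fold changes ran from -1.91 to -1.68 for QPRT and from 0.66 to 0.76 for NAMPT. No gene followed across these settings reversed its direction. All alternatives reuse the same libraries and the selected members, so they show dependence on processing only and are not independent evidence. For KYNU, voom with each library left out gave 2.98 to 3.45. Over all genes, 1758 rose and 2038 fell. With the filter of 5 FPKM 1155 rose and 1605 fell. As TPM 1615 rose and 1295 fell, so the balance of risen and fallen genes turned over with this scaling. A threshold of 0.01 left 847 risen and 1004 fallen. With each library left out, 1115 (without LACTB replicate 2) to 1505 rose. In the other NAD lists, where 8 rose and 12 fell, 5 rose with the filter of 5 FPKM, 7 fell as TPM and 4 rose at an adjusted p under 0.01. Near QPRT, where 1 rose and 2 fell, 0 fell without a filter and at an adjusted p under 0.01. Of the same genes, 1 fell as TPM, 3 fell by voom, 0 rose with the filter of 5 FPKM, and 1 to 2 fell with each library left out. Fewer genes pass the higher filter by construction. As TPM, the filter and the pseudocount of 1 were applied after rescaling, so 16070 genes were tested in place of 11875. The cause of the other changes was not tested. No pairing by replicate number was seen. Deviations of same-numbered libraries correlated at -0.126, 0.0194 and -0.0438, and those of differently numbered ones at -0.0601 to 0.1085. With 3 libraries per group, these values cannot exclude pairing. With the replicate block, 1155 rose and 1324 fell over all genes and 0 fell near QPRT, and the calls of PNP, SLC29A1, TNKS2, PARP4, MAZ and PAGR1 were lost (adjusted p = 0.0541 to 0.0944). Under quantile normalization those of PNP and PARP4 were lost (adjusted p = 0.109 and 0.0626). Depth limits IDO1 and the kynurenine genes with a few reads.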
